A study of Mus musculus with 4 samples.

Results

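The homeobox patterning factors of cortical neural stem cells were followed through a lentiviral knockdown of Foxp1, a forkhead transcription factor. They were picked out by gene name, as entries of the authors' deposited table with a single symbol of the families named next. These were Hox, En, Gsx, Dlx, Lhx, Emx, Otx, Meis, Pbx, Irx, Msx and Nkx, and the sine oculis homologues (Six5 and its relatives). Nkx2-2 was left out. The families were chosen with earlier results of these data known. The choice gave 96 of the 26815 entries, and 23 of the 96 had been tested by the authors, against 15315 of all entries. The cells were CD-1 mouse cortical stem cells of embryonic stage E14.5, bought from a supplier and kept in adherent culture under EGF and bFGF. All were transduced with a lentivirus and selected with puromycin at 0.5 µg/mL. One group carried a scrambled shRNA (SHC002) and the other a single shRNA directed at Foxp1 (pLKO.1_sh_ex15), with 2 libraries of polyadenylated RNA per group from different passages. Since each group rests on 1 shRNA, an effect of the hairpin sequence and an effect of the loss of Foxp1 cannot be told apart.

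The deposited values compare pooled conditions coded q1 and q2. No label or header ties either code to an shRNA, so directions are stated by code, and a negative log2 fold change means a lower value in q2. Levels per condition match no group of the study and were not used here, no value per library was used, and the read depth is unknown. The error of a log2 fold change is the one implied by its test statistic, and a gene is called at a Cuffdiff q under 0.05. Foxp1 itself had a log2 fold change of -2.03 with an implied error of 0.51 in the authors' deposited table (Cuffdiff q = 0.00162). The conditions thus differ in the targeted gene, but no label says which one carried the shRNA against Foxp1. In bulk RNA, fewer cells that express a gene and less RNA per cell cannot be told apart.

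Homeobox genes encode transcription factors that bind DNA through a homeodomain, and together they give cells of the embryo a position. Along the neural tube, Otx, Emx and Lhx2 mark the forebrain, En1 and En2 the midbrain-hindbrain boundary, and the Hox genes the hindbrain and spinal cord, where genes nearer the start of a cluster are expressed farther forward. Across the dorsoventral axis, Gsx, Dlx and Nkx factors mark ventral territories, while Pbx and Meis proteins bind DNA together with Hox and other homeodomain partners.

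Promoter sequences are shown for the called genes Hoxa5, En1 and Gsx1 and for Hoxa3, whose entry shares a locus with that of Hoxa5. No promoter window was available for Irx1, the remaining called gene, or for Hoxa4. They are taken from the RefSeq table of build GRCm38.p6 and run 5′ to 3′ on the gene's strand, from 250 bases before the start site to 50 bases after it. Capitals mark the motifs described below the sequences. The windows are chr6:52204538-52204837 (minus strand) for Hoxa5, chr6:52213018-52213317 (minus strand) for Hoxa3, chr1:120602237-120602536 (plus strand) for En1 and chr5:147188446-147188745 (plus strand) for Gsx1.
Hoxa5: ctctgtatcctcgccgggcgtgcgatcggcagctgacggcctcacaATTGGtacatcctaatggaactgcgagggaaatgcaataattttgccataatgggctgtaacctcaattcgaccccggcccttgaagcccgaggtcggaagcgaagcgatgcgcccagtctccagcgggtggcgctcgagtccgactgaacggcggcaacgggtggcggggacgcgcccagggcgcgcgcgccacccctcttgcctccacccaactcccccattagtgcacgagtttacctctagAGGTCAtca
Hoxa3: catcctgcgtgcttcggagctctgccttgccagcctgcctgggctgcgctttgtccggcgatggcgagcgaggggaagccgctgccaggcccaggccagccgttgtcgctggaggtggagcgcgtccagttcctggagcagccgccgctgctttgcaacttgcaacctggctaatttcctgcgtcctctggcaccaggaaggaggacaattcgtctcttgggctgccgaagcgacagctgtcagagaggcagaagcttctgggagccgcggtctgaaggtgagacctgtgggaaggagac
En1: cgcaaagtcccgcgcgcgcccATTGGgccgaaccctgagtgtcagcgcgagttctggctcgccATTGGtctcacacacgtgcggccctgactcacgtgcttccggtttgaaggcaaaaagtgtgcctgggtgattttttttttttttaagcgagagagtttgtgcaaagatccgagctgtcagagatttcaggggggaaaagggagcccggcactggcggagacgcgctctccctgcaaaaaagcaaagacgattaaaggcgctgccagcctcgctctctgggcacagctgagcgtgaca
Gsx1: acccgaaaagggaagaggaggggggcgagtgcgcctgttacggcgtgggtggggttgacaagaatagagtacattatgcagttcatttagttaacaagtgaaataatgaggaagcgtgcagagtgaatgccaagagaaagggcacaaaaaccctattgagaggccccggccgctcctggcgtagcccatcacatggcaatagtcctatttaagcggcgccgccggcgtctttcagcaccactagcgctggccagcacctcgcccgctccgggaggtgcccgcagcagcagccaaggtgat

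Each window was searched on both strands for the forkhead core TGTTTAC, the Pbx-Hox composite TGATTNAT, the retinoid receptor element AGGTCA, the TATA element TATAAA and the CCAAT box CCAAT. Among 32544 distinct promoter windows of that length, 3.66% held the forkhead core, 3.23% the Pbx-Hox composite and 16.2% the AGGTCA half-site. The TATA element was in 13.6% and the CCAAT box in 37.4%. The Hoxa5 window held 1 CCAAT box, written as its complement ATTGG from position -204, and 1 AGGTCA half-site from position 42 downstream of the start. The En1 window held 2 CCAAT boxes, both as ATTGG, from positions -229 and -187. The windows of Hoxa3 and Gsx1 held none of the searched motifs. Promoter windows were found for 63 of the 96 genes, 73 windows in all. Of these 73, 0 held the forkhead core, 4 (5.48%) the Pbx-Hox composite and 9 (12.3%) the AGGTCA half-site. The TATA element was in 10 (13.7%) and a CCAAT box in 38 (52.1%). The windows of these genes had a median of 19 CpG dinucleotides and a median GC content of 60.3%, against 7 and 53% over all promoters.

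Of the 23 tested homeobox genes, 4 were called lower in q2 and 0 higher in the authors' deposited table. Over all tested entries, 7.63% were called, 4.24% higher and 3.39% lower. The 4 called genes were Hoxa5, a trunk and posterior hindbrain Hox gene, En1, a midbrain-hindbrain factor, Irx1, an Iroquois factor, and Gsx1, a ventral progenitor factor, each from a different family. At an unadjusted Cuffdiff p under 0.05, 6 of the 23 were lower and 2 higher, against 9.74% lower and 9.46% higher of all tested entries. The median log2 fold change of the 23 was 0.01, against -0.05 over all tested entries, and 12 of the 23 were positive. An absolute log2 fold change of at least 1 was found for 7 of the 23 genes (30.4%), against 12.4% of all tested entries. Hoxa3, Hoxa4 and Hoxa5 make up 3 of these 7 and 3 of the 6 lower genes. Their entries share 1 locus and are not independent. The homeobox genes were also measured less precisely, with a median implied error of 0.47 on the log2 scale against 0.38 over all tested entries.

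**Figure D1:**
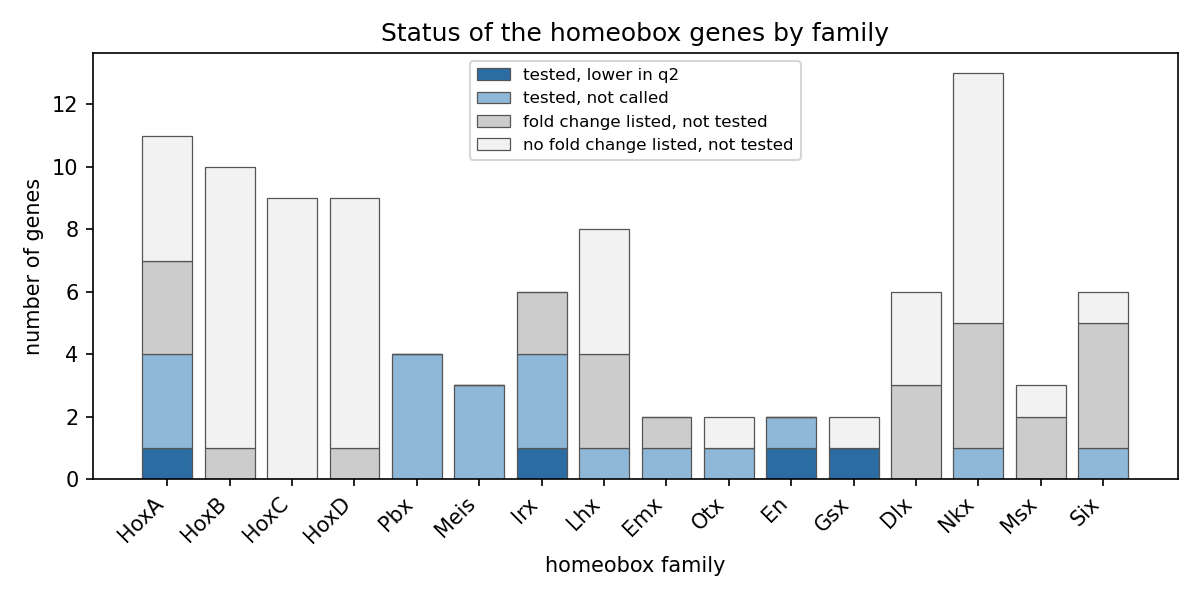
Number of homeobox genes (y axis) in each family (x axis), stacked by their status in the authors' deposited table. The HoxB, HoxC and HoxD bars hold no tested gene, the 7 Pbx and Meis genes were all tested, and the dark blue segments are the 4 genes called lower in q2.

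The other 73 homeobox genes were not tested by the authors. Of these, 49 carried a log2 fold change of exactly 0, the form in which Cuffdiff writes an entry with no signal in either condition. That is 51.0% of the 96 homeobox genes, against 25.5% of all entries. A further 12 were listed at 0 in one condition only, 5 of them in q1 and 7 in q2. The last 12 had a finite fold change without a test, and their fold changes carry no error. Untested genes are therefore described by the form of their entry, and no direction is drawn from them.

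Among the Hox genes, which set position along the body axis, nearly all signal lay in the HoxA cluster. Of the 28 genes of HoxB, HoxC and HoxD, 26 had no fold change listed in the authors' deposited table. The exceptions were Hoxb9, listed at 0 in q2, and Hoxd11, listed at 0 in q1, and neither was tested. In HoxA, 7 of 11 genes had a fold change listed, while Hoxa9, Hoxa10, Hoxa11 and Hoxa13 had none. The genes with signal are thus those at the anterior end of the cluster.

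Within HoxA, Hoxa5 fell in q2, and its neighbours Hoxa3 and Hoxa4 had fold changes of like size that did not pass the test. Hoxa5, a gene of the lower hindbrain and trunk, had a log2 fold change of -4.03 in the authors' deposited table, a level in q2 lower by 16.4-fold, with an implied error of 0.98 (Cuffdiff q = 0.0126). Hoxa4 had a log2 fold change of -4.37 with an implied error of 1.31 in the authors' deposited table and was not called (Cuffdiff q = 0.135). Hoxa3 had one of -4.25 with an implied error of 1.63 in the authors' deposited table and was not called either (Cuffdiff q = 0.243). The fold differences of the 3 genes ran from 16.4 to 20.7, and the smallest error belonged to the called gene. With a p-value read from the normal distribution of the authors' statistic, Hoxa4 passed as well (Benjamini-Hochberg adjusted p = 0.0309).

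Hoxa2, Hoxa6 and Hoxa7 were not tested by the authors. Hoxa2 carried a log2 fold change of 1.77 and Hoxa7 one of -3.62 in the authors' deposited table, and Hoxa6 was listed at 0 in q2. These 3 genes, like the pattern along the cluster, were singled out after their values were seen.

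**Figure D2:**
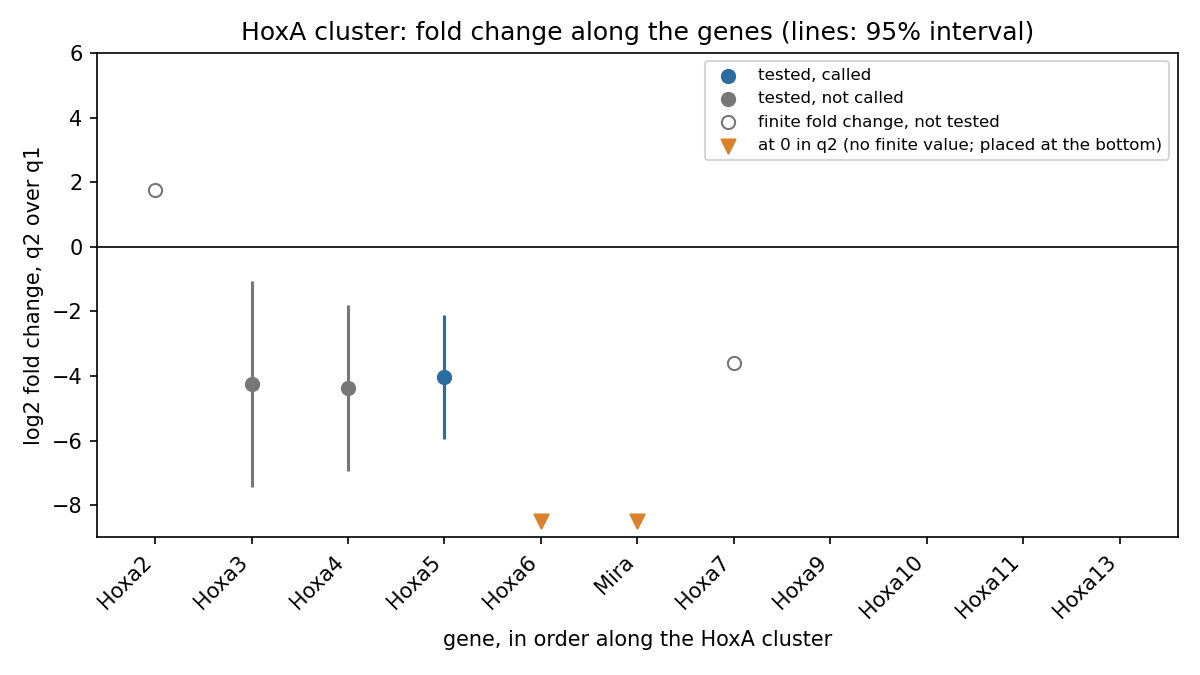
Log2 fold change of 10 HoxA genes and the noncoding Mira (x axis, in their order along the cluster), in the authors' deposited table, with vertical lines for 95% intervals from the implied error; triangles at the lower edge stand for entries at 0 in q2, which have no finite value. Hoxa3, Hoxa4 and Hoxa5 lie between -4.37 and -4.03, Hoxa2 at 1.77, and no point is drawn beyond Hoxa7.

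The entries of Hoxa3, Hoxa4, Hoxa5 and Hoxa6 share 1 locus, chromosome 6 from 52169062 to 52213597 (GRCm38), with the noncoding 2700086A05Rik, so they are not independent measurements. In GENCODE M21, exons of Hoxa3 overlap those of Gm28308 on the same strand and of 4 genes on the opposite strand, and exons of Hoxa4 overlap 1 opposite-strand gene, Gm29430. Exons of Hoxa5 overlap no other gene. Of the 23 tested homeobox genes, 15 overlap no exon of another gene, Hoxa5, En1, Irx1 and Gsx1 among them. How the authors' counting used strand is unknown here, so reads of Hoxa3 or Hoxa4 and of these partners cannot be told apart.

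Entries other than Hox genes within 20 kb of a Hox gene, most of them noncoding RNAs, had signal only around HoxA, where 3 of 6 did. The 4 such entries around HoxB, the 3 around HoxC and the 5 around HoxD had no fold change listed. Mira, a noncoding transcript between Hoxa6 and Hoxa7 (52214492 to 52215288), was listed at 0 in q2 and called lower there in the authors' deposited table (Cuffdiff q = 0.00162). An entry without a symbol, 52161930 to 52162367, ended 49 bases from the Hoxa2 locus. It overlaps an exon of the antisense RNA Hotairm1 by 189 of its 438 bases, and exons of Gm27868 by 102 and of Gm27477 by 143. Its log2 fold change was -1.55 in the authors' deposited table, just inside the threshold (Cuffdiff q = 0.0488). Both called entries of the cluster that are no Hox genes were thus lower in q2, as Hoxa5 was. 2700086A05Rik was listed at 0 in q2 and was not tested.

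Pbx and Meis genes, whose proteins are partners of Hox factors, were all tested. Cuffdiff called 0 of the 7, against 7.63% of all tested entries, and 1 reached an unadjusted p under 0.05. Pbx3 had a log2 fold change of 0.01 (95% interval -0.64 to 0.66) in the authors' deposited table. Meis1, Meis2 and Meis3 had log2 fold changes of -0.10, 0.01 and -0.12 in the authors' deposited table, and that of Meis1 turned to 0.056 with a trend with transcript GC content removed. For Pbx3 and the Meis genes the 95% intervals together run from -0.83 to 0.66 on the log2 scale. Pbx2 had a log2 fold change of 0.56 in the authors' deposited table and was not called (Cuffdiff p = 0.0259, q = 0.177). Pbx4 had one of -0.47 in the authors' deposited table (Cuffdiff q = 0.584). Among these partners, Pbx3 and the Meis genes thus had log2 fold changes near 0. Their implied errors, 0.32 to 0.36, were close to that of Pbx2, 0.36, and to the median of 0.38 over all tested entries. The intervals of Pbx2 (-0.14 to 1.26) and Pbx4 (-1.59 to 0.66) reached farther from 0. The intervals of Hoxa3, Hoxa4 and Hoxa5 were wide and lay below 0, though only Hoxa5 was called.

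Iroquois factors take part in subdividing the neural plate and tube, and their genes lie on 2 chromosomes. Irx1 was lower by 3.85-fold in q2 by the authors' deposited table. Its log2 fold change was -1.94 with an implied error of 0.49 (Cuffdiff q = 0.00162). That q belongs to the smallest deposited Cuffdiff p, 5e-05, which 472 tested entries share. Irx2, on the same chromosome 13, had a log2 fold change of -0.45 (95% interval -1.74 to 0.84, Cuffdiff q = 0.661) in the authors' deposited table. Irx3 and Irx5, on the other chromosome, lay on the positive side of the authors' deposited table, at 0.37 and 0.59 on the log2 scale (Cuffdiff q = 0.61 and 0.29). Irx4 and Irx6 were not tested. Of 4 tested Iroquois genes, then, 1 was called lower and 3 were not called.

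En1 and En2, paralogues of the midbrain-hindbrain region, lay on opposite sides of 0. En1 was lower by 12.4-fold in q2 by the authors' deposited table, with a log2 fold change of -3.63 and an implied error of 0.86 (Cuffdiff q = 0.0188). En2 had a log2 fold change of 0.58 in the authors' deposited table (95% interval -0.35 to 1.52, Cuffdiff q = 0.345). The interval of En1, -5.31 to -1.96, lies wholly below that of En2, though the difference between the paralogues was not itself tested.

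Forebrain factors were compared between the conditions only, so whether the cells matched their cortical label was not tested. Lhx2, a LIM homeobox factor required for cortical identity, Emx2 and Otx1 were all tested and not called by the authors' deposited table, with log2 fold changes of 0.20, 0.01 and 0.22 (Cuffdiff q = 0.733, 0.987 and 0.709). With the GC trend removed, Lhx2 turned to -0.060 and Otx1 went to 0.084. Emx1, which marks the dorsal forebrain together with Emx2, was listed at 0 in q1 and not tested, and Otx2 had no fold change listed. Of 6 dorsal forebrain markers, 5 were tested, Emx2, Lhx2, Otx1 and Pax6 among them. Cuffdiff called 0 of the 5, against 7.63% of all tested entries, and 0 reached an unadjusted p under 0.05. Apart from Lhx2, none of the 8 Lhx genes was tested, and 4 had no fold change listed.

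Of the ventral forebrain factors of the homeobox families, Gsx1 alone was tested. By the authors' deposited table, it was lower by 3.09-fold in q2, with a log2 fold change of -1.63 and an implied error of 0.56 (Cuffdiff q = 0.00418). With a p-value from the normal distribution of the authors' statistic Gsx1 did not pass (Benjamini-Hochberg adjusted p = 0.102, against 0.0223 to 0.121 over the settings that use that distribution). Its paralogue Gsx2 had no fold change listed, as had Dlx4, Dlx5 and Dlx6. Dlx1 and Dlx2 carried finite fold changes without a test, and Nkx2-1, which marks the medial ganglionic eminence, was listed at 0 in q1 and not tested.

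Of the 13 Nkx genes only Nkx6-2, a factor of ventral progenitors and oligodendrocytes, was tested. By the authors' deposited table, its log2 fold change was 2.01 with an implied error of 1.74 (Cuffdiff q = 0.387). Its entry shares a locus with Inpp5a, which lies on the opposite strand with overlapping exons and had, by the authors' deposited table, a log2 fold change of 0.22 (Cuffdiff q = 0.739). Of the other Nkx genes, 8 had no fold change listed.

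Six5, a homologue of Drosophila sine oculis, was the homeobox gene nearest to a call on the higher side. By the authors' deposited table, its log2 fold change was 0.95 with an implied error of 0.46 (Cuffdiff q = 0.0591). With a p-value from the normal distribution of the authors' statistic, Six5 lay farther from a call (Benjamini-Hochberg adjusted p = 0.428). Its relatives and the Msx genes were not tested. Msx1 shares a locus with Msx1os, which was tested and not called (log2 fold change -2.62, Cuffdiff q = 0.196, in the authors' deposited table). In all, 14 of the 96 entries shared a locus with another entry, 4 of them tested: Hoxa3, Hoxa4, Hoxa5 and Nkx6-2.

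**Figure D3:**
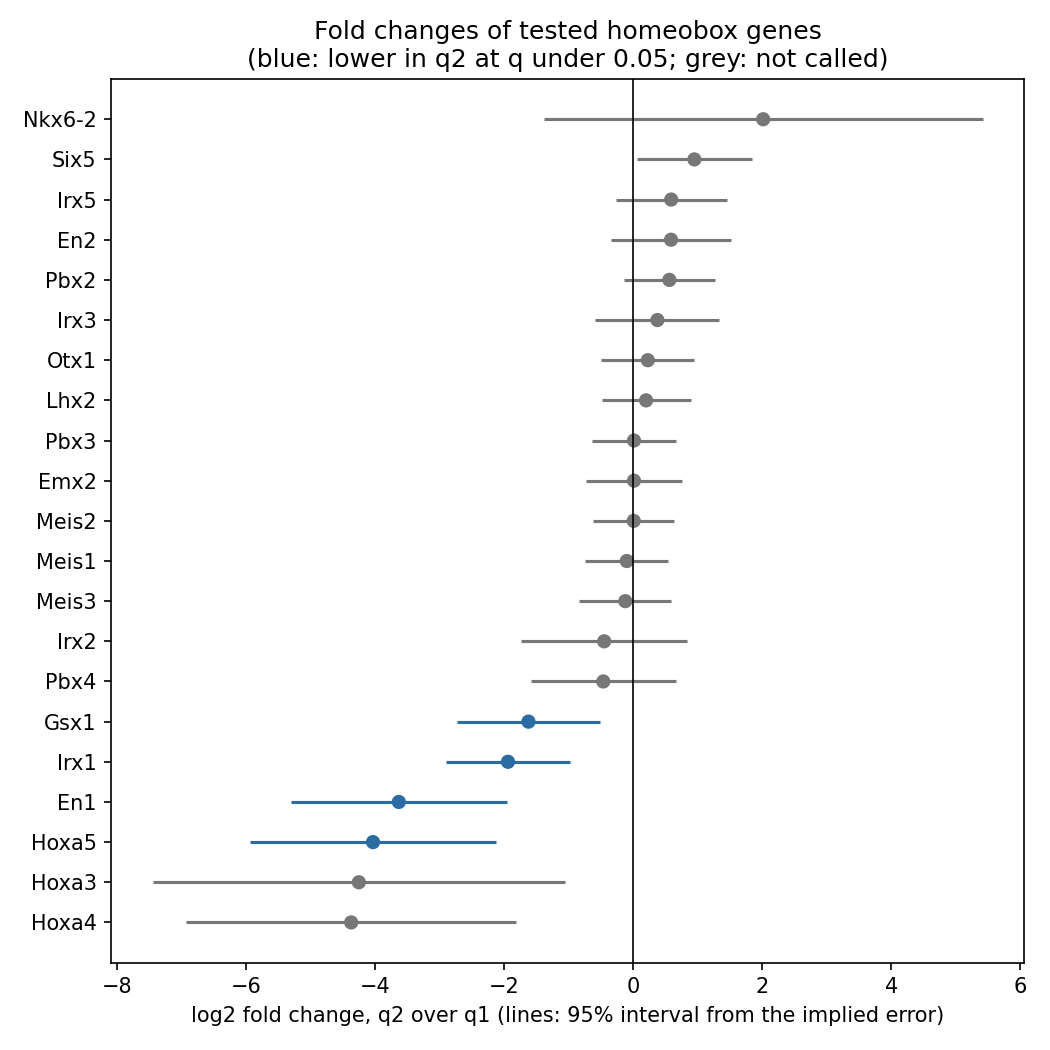
Log2 fold change (x axis, q2 relative to q1) of 21 tested homeobox genes (y axis), with lines for the 95% intervals; blue marks the 4 called genes and grey the rest. Hoxa3, Hoxa4, Hoxa5 and En1 lie at -3.63 or lower with wide intervals. Pbx3 and the Meis genes lie between -0.12 and 0.01 with narrower ones, while Pbx2 lies at 0.56 and Pbx4 at -0.47.

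Other homeobox genes, outside the families above, gave 2 calls in 37 tested entries, both higher in q2. That is 5.41%, against 7.63% of all tested entries. Barx2 had a log2 fold change of 3.15 and Hopx, an atypical homeodomain protein of radial glia, one of 1.16 in the authors' deposited table (Cuffdiff q = 0.00162 for both). Among 19 tested regional factors without a homeodomain, 1 was called higher and 1 lower (10.5%, against the same 7.63%). By the authors' deposited table, Egr2, a hindbrain segment and immediate early gene, had a log2 fold change of 1.29, and Nr2f2, a nuclear receptor of caudal and ventral territories, one of -2.44 (Cuffdiff q = 0.00162 and 0.00918).

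Among regulators of Hox transcription, 38 were tested, of which 4 were called higher and 1 lower. That is 13.2%, against 7.63% of all tested entries. In the authors' deposited table, the retinoic acid receptors Rarg and Rara had log2 fold changes of 1.75 and 1.13 (Cuffdiff q = 0.00162 and 0.0142). By the authors' deposited table, Aldh1a1, which makes retinoic acid, was lower by 13.5-fold in q2, or -3.76 on the log2 scale (Cuffdiff q = 0.00162). The histone demethylase Kdm6b and the methyltransferase Kmt2d were higher in q2 by the authors' deposited table, at 0.78 and 0.87 on the log2 scale (Cuffdiff q = 0.00918 and 0.00418). The Polycomb subunits Ezh2 (-0.50), Suz12 (-0.26) and Eed (0.05) were not called in the authors' deposited table. Whether these genes bear on the homeobox genes was not tested.

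Some glial markers differed in the same comparison, in which 7.63% of all tested entries were called. Of 4 astrocyte markers, 3 were called lower in q2: Gfap, Aqp4 and Aldh1l1, with log2 fold changes of -2.06, -2.70 and -0.87 in the authors' deposited table. Of 4 oligodendrocyte lineage markers, 3 were tested, with 1 called lower and 1 higher. Pdgfra, the receptor of oligodendrocyte precursors, had a log2 fold change of -2.83 and Mbp, a myelin protein, one of 1.75, both called, while Cspg4, at -0.27, was not called in the authors' deposited table (Cuffdiff q = 0.538). Sox10 was not tested. Of 8 neural stem cell markers, 2 were called higher (Sox1 and Nes) and 1 lower (Fabp7). Cuffdiff tested 1 of 5 microglial, 1 of 4 endothelial, 1 of 5 fibroblast and 2 of 4 neural crest markers and called none of them, with 1 neural crest marker at an unadjusted p under 0.05. The part of the glial markers in the homeobox results was not tested.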

How the data were processed

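Polyadenylated RNA of 4 libraries, 2 per shRNA, was prepared with a SOLiD kit, per the labels' protocols, and processed with TopHat2 2.0.9, Cufflinks 2.2.1 and Cuffdiff on build mm10 (GRCm38), per the submitters' processing notes. The annotation, the filters and the handling of strand were not stated in these sources. The authors deposited 1 comparison table with, per the file headers, the log2 fold change of q2 over q1, a test statistic (a score), a p-value and a q-value per entry. Its 2 columns of values per condition could be matched to no group and were not used. Every one of the 15315 deposited q-values was recovered from the deposited p-values by Benjamini-Hochberg adjustment (relative tolerance 0.001). The duplicates are different passages, and which spread the p-values reflect is unknown. The depth per sample is unknown.

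Calls are the authors' own, adjusted over all tested entries. The implied error is the log2 fold change divided by the statistic, and the 95% interval is that error times the normal quantile on each side; since the p-values do not follow the statistic exactly, these intervals are approximate. A finite fold is 2 to the power of the log2 fold change. Locus starts were converted to count from 1. Exon overlaps came from GENCODE M21 and promoters from the RefSeq table of GRCm38.p6. The homeobox genes and lists were chosen with earlier results of these data known. Called homeobox genes were named in full, other tested ones by fold change, untested ones mostly by count, and of the other lists the called genes, at most 6 each; the Polycomb subunits, Msx1os and Inpp5a, the untested genes singled out, and the entries inside the Hox clusters were added after their values were seen. Values of some genes are not reported here and not drawn. Of 46 regulators of Hox transcription, 45 were found. Alternatives were other q thresholds, a minimum fold change, p-values from the normal distribution, centring, entries with a locus of their own, entries above 0 in both conditions, and removal of a trend with transcript GC content. The adjustment and the GC step were tested on simulated data. Python 3.11.15, numpy 2.4.6, pandas 2.3.3, scipy 1.17.1 and matplotlib 3.10.9 were used.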

Additional observations from a re-analysis of the deposited data

How the results depend on the processing

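Of the homeobox genes, 4 were called lower and 0 higher in q2. At q under 0.01, 2 were called lower, Gsx1 and Irx1, and at q under 0.1, 1 was called higher, Six5. Under the other settings 3 to 5 were called lower and 0 higher; Irx1 and En1 were called under each of these, and Hoxa5 was absent only where entries of shared loci were left out. With p from the normal distribution, with centring and with the GC trend removed, Gsx1 had adjusted p-values of 0.102, 0.121 and 0.0223 and Hoxa4 of 0.0309, 0.0343 and 0.0186; the cause was not tested. The median log2 fold change lay between 0.01 and 0.05. With the GC trend removed, Meis1 went to 0.056 and Lhx2 to -0.060, neither called; the cause was not tested. Over all entries, 649 were called higher and 519 lower, against 374 and 293 at q under 0.01, 845 and 757 at q under 0.1, 418 and 269 with an absolute log2 fold change of at least 1, 255 and 202 with normal p-values, 287 and 186 with centring, and 190 and 125 of 11749 with the GC trend removed. A filter on FPKM and pseudocounts were not run, since they need the levels per condition. No paired analysis was possible because no values per library were used, and for the same reason no replicate could be left out.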

Other observations

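Test statistic and p-value ordered some homeobox genes differently in the authors' deposited table. Hoxa4 had a statistic of -3.35 beside a Cuffdiff p of 0.0167, while Gsx1 had a smaller statistic of -2.89 beside a Cuffdiff p of 0.00015. En1 had the largest statistic in size among the 23 tested homeobox genes, -4.25, with a Cuffdiff p of 0.001. Irx1, at -3.96, had a Cuffdiff p of 5e-05, the smallest deposited, which 472 tested entries share.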
